A study of Homo sapiens with 6 samples.

Results

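The cytosolic ribosomal protein genes were followed clone by clone in 6 transcriptomes of KYSE150, an established line of oesophageal squamous cell carcinoma. Members were chosen by name alone, as protein-coding genes in RefSeq with an RPL or RPS symbol and a number, together with the P-stalk genes RPLP0, RPLP1 and RPLP2 and the small-subunit gene RPSA. S6 kinases, mitochondrial ribosomal proteins and the sex-linked RPS4 genes were left out. The rule gave 84 of the 40448 gene identifiers listed, with 53 named for the large and 31 for the small ribosomal subunit. Of these, 8 are L-suffixed paralogs, namely RPL3L, RPL7L1, RPL10L, RPL22L1, RPL26L1, RPL36AL, RPL39L and RPS27L. NCCRP1 clones 1, 6 and 17 were stably transfected with a vector that expresses human NCCRP1, whose product is related to F-box proteins. The mock clones 1, 4 and 5 carried the pIRES2-EGFP vector, which encodes a green fluorescent protein. Each library came from 1 expanded clone of the same line, so a difference between groups compares 3 clones with 3 other clones, and the labels name neither the promoter of the NCCRP1 vector nor an untransfected culture.

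Ribosomal proteins and ribosomal RNA together build the small subunit, which decodes the message, and the large subunit, which joins the amino acids. Cells are known to coordinate these proteins mainly at translation, through a run of pyrimidines at the very start of their messages, the terminal oligopyrimidine or TOP tract, which is read under control of the kinase mTOR and the RNA-binding protein LARP1. RPL5 and RPL11, when not built into ribosomes, can bind the p53 regulator MDM2, and growing carcinoma lines are known to express ribosomal protein genes strongly.

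Values are log2 of RPKM, the read count scaled to gene length and to the mapped reads of the library, from total RNA depleted of ribosomal RNA and sequenced on an Ion instrument. A listed 0 stands for a gene below 1 RPKM or without an estimate. The number of reads behind the RPKM denominator was estimated at 14570000 to 18070000 in NCCRP1 libraries and at 12290000 to 15960000 in mock libraries. The estimate comes from the whole-read steps of microRNA genes within a search from 10000000 to 20000000 reads, and depths outside that range were not searched. At the best-matching depths, 24.7% to 31.5% of the low microRNA values lay close to a whole read in NCCRP1 libraries. In mock libraries 24.6% to 34.3% did, so the depths and the read numbers built on them are approximate. NCCRP1 itself had 6.19, 8.07 and 6.71 in the NCCRP1 clones and was listed at 0 in every mock clone. All 14 squamous markers were above 0 in every library, with summed levels of 1806 to 3134 RPKM in NCCRP1 clones and 2453 to 2839 RPKM in mock clones. Markers of other cell types were nearly all at 0, which held for 7 of 8 fibroblast, 5 of 6 endothelial and 7 of 8 immune genes in every library. NCCRP1 clone 1 and mock clones 1 and 4 have run number 15 in their deposited file titles, and NCCRP1 clones 6 and 17 and mock clone 5 have run number 14.

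Sequence at the annotated starts shows the feature that most of these genes share and that the naming rule did not use. Each line gives 30 bases before and 20 bases from the RefSeq transcription start of GRCh38.p14, on the transcript's strand, with the TOP tract in capitals. The genes are those whose values recur in the results, and the 3 last ones lack a tract at that start.
RPLP0 (chr12:120201092-120201141, minus strand): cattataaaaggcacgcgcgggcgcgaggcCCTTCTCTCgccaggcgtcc
RPS6 (chr9:19380217-19380266, minus strand): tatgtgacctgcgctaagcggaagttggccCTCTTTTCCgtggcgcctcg
RPS19 (chr19:41860225-41860274, plus strand): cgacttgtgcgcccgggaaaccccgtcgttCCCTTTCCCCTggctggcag
RPL21 (chr13:27251528-27251577, plus strand): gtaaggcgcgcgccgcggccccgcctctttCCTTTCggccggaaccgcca
RPL22 (chr1:6199576-6199625, minus strand): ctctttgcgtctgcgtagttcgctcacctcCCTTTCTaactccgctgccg
RPL22L1 (chr3:170870176-170870225, minus strand): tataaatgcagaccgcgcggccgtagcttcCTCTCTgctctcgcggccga
RPL26 (chr17:8383174-8383223, minus strand): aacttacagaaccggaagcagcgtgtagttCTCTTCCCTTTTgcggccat
RPL26L1 (chr5:172958699-172958748, plus strand): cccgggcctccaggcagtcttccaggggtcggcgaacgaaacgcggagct
RPS27L (chr15:63157458-63157507, minus strand): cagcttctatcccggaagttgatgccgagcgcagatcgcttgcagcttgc
RPS15 (chr19:1438366-1438415, plus strand): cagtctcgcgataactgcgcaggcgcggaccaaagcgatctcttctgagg
A tract was counted where the first transcribed base was C and at least 4 pyrimidines, C or T in the DNA, followed it, on the transcript's strand only. Of the 67 members with a start in the table, 47 had one, or 70.1%, against 5.14% of all 27305 genes in the table and 7.49% of the tested genes in it. Among the paralogs 1 of 6 had one, RPL22L1, and among the other members 46 of 61. The tract ran to 12 bases in RPL26, 11 in RPS19 and 6 in RPL21 and RPL22L1. For RPS15 the annotated first base is C but no run of pyrimidines follows it, which says only that these letters are not at this start.

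Of the 84 members, 81 were above 0 in every library. They spanned log2 levels from RPS26 to RPL8, with a median of 6.83 over the gene means. In NCCRP1 clones 1, 6 and 17, 76, 75 and 76 of the 81 lay above the median of all genes listed above 0, and in mock clones 1, 4 and 5 77, 77 and 75 did. By gene mean, 21 members were at a log2 RPKM of 8 or more, 33 between 6 and 8, 21 between 4 and 6, and 6 under 4. Summed over members, the level was 20519, 16101 and 15718 RPKM in NCCRP1 clones 1, 6 and 17, compared with 19030, 16685 and 13074 RPKM in mock clones 1, 4 and 5. The sums averaged 17446 ± 2668 RPKM in NCCRP1 clones and 16263 ± 3000 RPKM in mock clones (SD, n = 3 each), a gap smaller than either SD. In such bulk samples a share of cells with fewer ribosomal protein messages and less of them in every cell cannot be told apart. Clone 1 was the highest in both groups, and mock clone 5 was the lowest of the 6 libraries. The sums of run 15, from NCCRP1 clone 1 and mock clones 1 and 4, all lay above the sums of run 14. In this order of libraries, clone and run cannot be told apart. The 6 genes with the highest means carried 34.1% to 38.4% of the sum in NCCRP1 clones and 34.3% to 37.9% in mock clones.

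**Figure D1:**
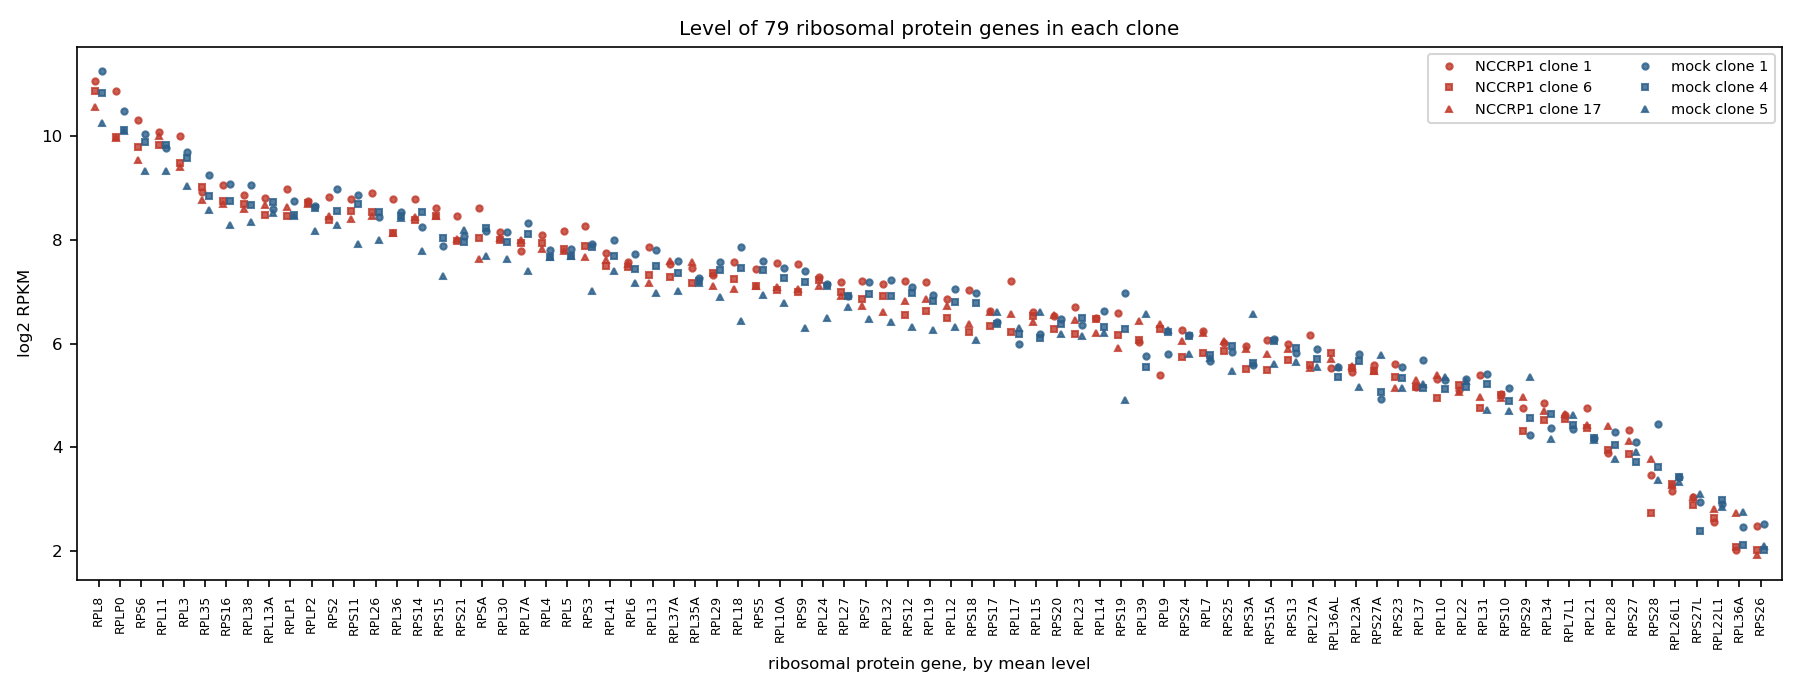
Log2 RPKM (vertical axis) of 79 ribosomal protein genes above 0 in every library, ordered by their mean over 6 libraries (horizontal axis), with red points for NCCRP1 clones, blue points for mock clones and a shape for each clone. Levels run from RPL8 at a mean of 10.80 to RPS26 at 2.18, and the triangles of mock clone 5 lie lowest for most genes.

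RPL8, a core protein near the peptidyl transferase centre, had log2 RPKM values of 11.06, 10.86 and 10.55 in NCCRP1 clones 1, 6 and 17, compared with 11.24, 10.82 and 10.25 in mock clones 1, 4 and 5. RPLP0, the base of the P-stalk that recruits translation factors, had 10.86, 9.97 and 9.95 in the NCCRP1 clones and 10.48, 10.12 and 10.09 in the mock clones. For both genes the groups overlapped, and RPLP0 was highest in NCCRP1 clone 1. RPLP1, which pairs with RPLP2 on the stalk, had 8.98, 8.45 and 8.62 in NCCRP1 clones against 8.74, 8.48 and 8.46 in mock clones. RPLP2 had 8.74, 8.71 and 8.69 in NCCRP1 clones against 8.65, 8.62 and 8.17 in mock clones, so that its groups did not overlap while those of RPLP1 did. The log2 difference, NCCRP1 minus mock, was 0.24 ± 0.19 (SE) for RPLP2, with a limma adjusted p of 0.894.

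RPS6, the S6 kinase substrate of the small subunit, was the third most abundant, with 10.30, 9.78 and 9.53 in NCCRP1 clones against 10.03, 9.88 and 9.32 in mock clones. RPL3, which reaches into the catalytic centre, had 10.00, 9.48 and 9.39 in NCCRP1 clones against 9.68, 9.58 and 9.03 in mock clones, and RPL35, which lies at the mouth of the exit tunnel, had 8.91, 9.01 and 8.77 against 9.25, 8.84 and 8.57. These 3 genes overlapped between groups and differed by 0.13, 0.19 and 0.01 on the log2 scale. RPSA, the small-subunit protein that shares its gene with a laminin receptor precursor, had 8.61, 8.02 and 7.63 in NCCRP1 clones against 8.16, 8.22 and 7.68 in mock clones. Its spread in NCCRP1 clones, an SD of 0.50, exceeded its difference of 0.07.

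At the low end, RPS26, which contacts the message beside the exit site, had 2.48, 2.03 and 1.92 in NCCRP1 clones against 2.53, 2.03 and 2.10 in mock clones. RPL36A, a large-subunit protein, had 2.03, 2.09 and 2.75 in NCCRP1 clones against 2.47, 2.11 and 2.76 in mock clones. Neither gene separated the groups, and from the estimated depths RPS26 rested on about 34 to 63 reads in NCCRP1 libraries and 32 to 44 in mock libraries. The other members were estimated at 47 or more reads in every library, up to 40946 for RPLP0. These estimates used GENCODE transcript lengths, which may differ from the lengths behind the RPKM. The 427 to 953 reads of RPS27L, for example, rest on a length of 6434 bases. Levels of members with near-identical copies in the genome are uncertain, since the way shared reads were assigned is not given in the sources used here.

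Paralogs were below their namesakes, except for 1 pair. The gap in log2 RPKM, paralog minus namesake, averaged -5.38 ± 0.31 in NCCRP1 clones and -4.92 ± 0.23 in mock clones for RPL26L1 and RPL26 (SD, n = 3 each). For this pair alone the 2 groups of clones did not overlap. The margin was narrow, with NCCRP1 clone 17 at -5.18 and mock clone 4 at -5.09. The extremes were -5.73 in NCCRP1 clone 1 and -4.66 in mock clone 5, where RPL26 itself was highest and lowest. The gap averaged -2.45 in NCCRP1 clones and -2.33 in mock clones for RPL22L1 and RPL22, -1.49 and -1.25 for RPL7L1 and RPL7, and -1.12 and -1.10 for RPS27L and RPS27, with overlapping clones in each. RPL36AL ran the other way and exceeded RPL36A by 3.40 in NCCRP1 clones and by 3.04 in mock clones, also with overlap. The overlapping gene RPL36A-HNRNPH2, which shares exons with RPL36A, had 3.79, 4.09 and 3.85 in NCCRP1 clones against 3.94, 3.74 and 4.09 in mock clones. It lay above RPL36A in every library, so the low level of RPL36A and the size of this gap are uncertain. RPL3L, known from heart and skeletal muscle, and RPL10L, known from testis, were listed at 0 in all 6 libraries. RPL39L, also known from male germ cells, was listed at 0.10 in NCCRP1 clone 17 and at 0 in the other NCCRP1 clones and in every mock clone. Its namesake RPL39, a small protein of the exit tunnel, had 6.03, 6.06 and 6.43 in NCCRP1 clones against 5.76, 5.54 and 6.57 in mock clones.

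Between NCCRP1 and mock clones none of the 81 members passed limma at an adjusted p of 0.05, where 0.102% of all 12737 tested genes passed, 0.0707% as higher and 0.0314% as lower. At an unadjusted p under 0.05 there were 4 members, RPS15, RPL7, RPL21 and RPL17, or 4 of 81 where the background was 7.33%. The mean was higher in NCCRP1 clones for 57 of 81 members, against 46.7% of all tested genes, and the median log2 difference was 0.07, against -0.02 over all tested genes. The difference was smaller than 0.1 in size for 36 members, above 0.3 for 11 and above 0.5 for 2, and for 67 it was smaller than the larger of the group SDs. By subunit the mean was higher in NCCRP1 clones for 33 of 46 large-subunit genes, 21 of 30 small-subunit genes and 3 of 5 paralogs. Genes with the TOP tract had a median difference of 0.06, with 34 of 47 higher, and the tested members with an annotated start but no tract had 0.13, with 14 of 19 higher. These p-values measure only the spread between 6 libraries of separately labelled clones. The lean toward higher means was not seen when either of 2 libraries was left out. The median difference was -0.01 with 38 of 81 higher without NCCRP1 clone 1, and -0.02 with 35 of 81 higher without mock clone 5. Clone 1 is the only NCCRP1 library of run 15, and clone 5 the only mock library of run 14. Leaving out either one puts its whole group in 1 run, so clone and run cannot be told apart there.

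Within runs the lean was larger. In run 15, NCCRP1 clone 1 minus the mean of mock clones 1 and 4 had a median of 0.15, with 61 of 81 members higher. In run 14, the mean of NCCRP1 clones 6 and 17 minus mock clone 5 had a median of 0.21, with 63 of 81 higher. Over all tested genes the medians were -0.02 in run 15 and -0.04 in run 14. These contrasts set 1 clone against 2, so each carries a library that stood apart from its group. Higher values in NCCRP1 within both runs were found for 48 members, against a background of 21.7%, and lower values in both for 5, against 29.4%. With run as a term in the fit, 69 of 81 were higher, against 44.8% of all tested genes. The median was 0.16, against -0.03 over all tested genes, and again no member passed.

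**Figure D2:**
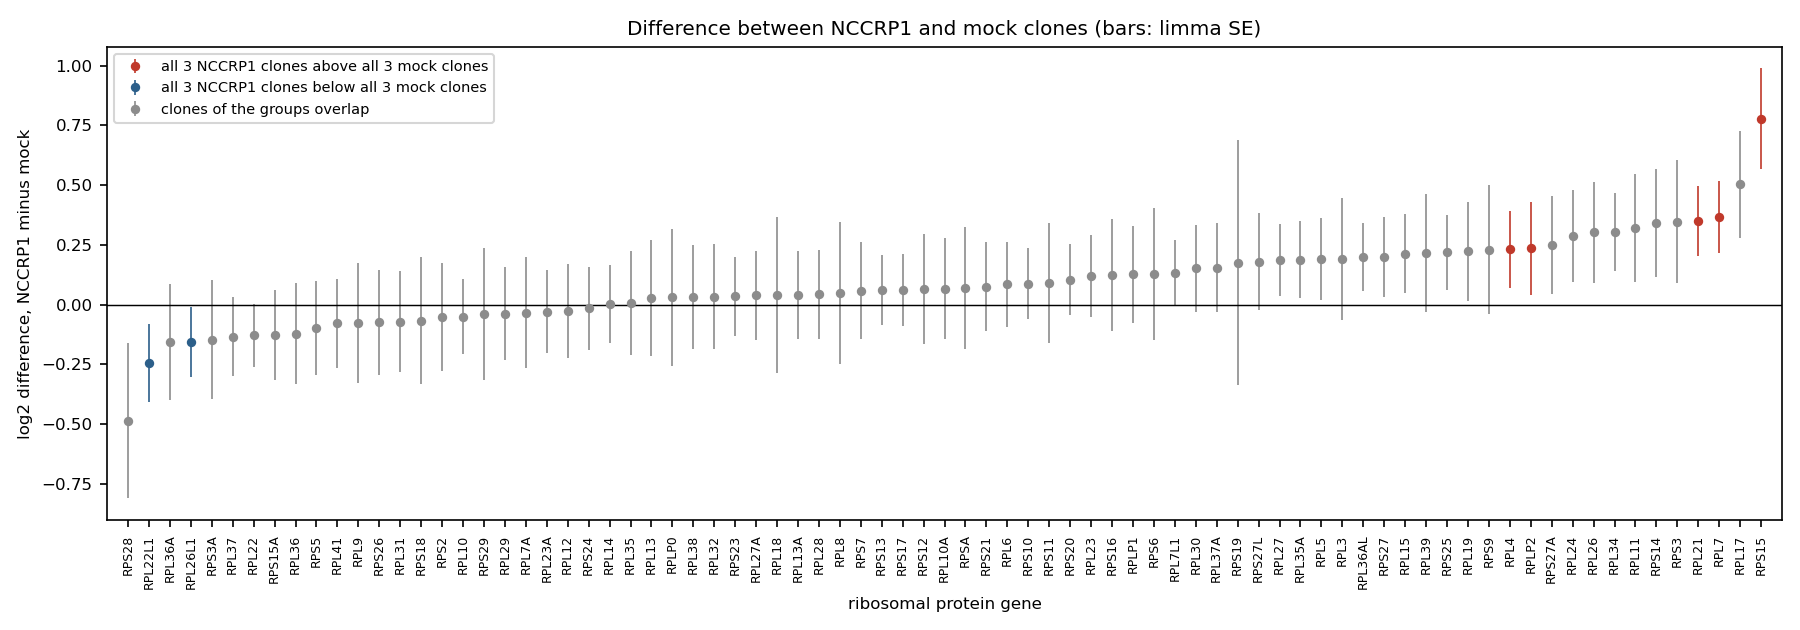
Log2 difference, NCCRP1 minus mock clones (vertical axis), for each of 79 ribosomal protein genes (horizontal axis), with bars for the limma standard error. RPS15 lies farthest up at 0.78 and RPS28 farthest down at -0.49; 5 genes in red had all NCCRP1 clones above all mock clones, and 2 in blue had all of them below.

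All 3 NCCRP1 clones lay above all 3 mock clones for 6 members, among them RPS15, RPL7, RPL21, RPL4 and RPLP2, where 5.71% of all tested genes did so. All lay below for 2 members, RPL22L1 and RPL26L1, where the background was 7.05%. RPS15, a small-subunit protein that contacts the decoding site, had 8.62, 8.46 and 8.45 in NCCRP1 clones 1, 6 and 17, compared with 7.87, 8.03 and 7.30 in mock clones 1, 4 and 5. No clone of either group lay among those of the other. Its mean was 8.51 ± 0.09 in NCCRP1 clones and 7.73 ± 0.38 in mock clones (SD, n = 3 each), a log2 difference of 0.78 ± 0.21 (SE) or 1.71-fold, with a limma adjusted p of 0.325, the lowest of any member. Within runs 15 and 14 the difference was 0.67 and 1.16. Over 15 other settings it ranged from 0.56 to 0.92 and its adjusted p from 0.138 to 0.561.

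RPS15 did not stand alone on its chromosome. Among its 30 nearest expressed protein-coding neighbours on chromosome 19, 29 had a higher mean in NCCRP1 clones, and their median log2 difference was 0.53. Those neighbours' median deviation from each gene's mean over the 6 libraries was 0.26, 0.20 and 0.26 in NCCRP1 clones 1, 6 and 17, compared with -0.06, -0.10 and -0.52 in mock clones 1, 4 and 5. The part of the neighbourhood in the RPS15 value was not tested. RPL7, RPL21 and RPL17 had no such surroundings, with neighbour medians of 0.04, 0.00 and -0.02.

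RPL7, a large-subunit protein, had 6.24, 5.83 and 6.21 in NCCRP1 clones against 5.66, 5.78 and 5.72 in mock clones. NCCRP1 clone 6 was close to the highest mock clone, and the log2 difference was 0.37 ± 0.15 (SE, limma adjusted p = 0.623). RPL21 had 4.75, 4.38 and 4.43 in NCCRP1 clones against 4.18, 4.18 and 4.15 in mock clones. The mock values lay within an SD of 0.02, the NCCRP1 values within 0.20, and the difference was 0.35 ± 0.15 (SE, limma adjusted p = 0.631). RPL4, which lines the exit tunnel, had 8.08, 7.94 and 7.82 in NCCRP1 clones against 7.81, 7.67 and 7.67 in mock clones, with NCCRP1 clone 17 just above mock clone 1. RPL34 and RPL24 of the large subunit and RPS14 of the small subunit differed by 0.30, 0.29 and 0.34, with limma adjusted p-values of 0.758, 0.846 and 0.840 and overlapping clones for RPL34 and RPS14. RPL24 also overlapped, since NCCRP1 clone 17 at 7.10 was below mock clone 1 at 7.15.

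RPL17, which lines the exit tunnel beside RPL4, had 7.20, 6.23 and 6.57 in NCCRP1 clones against 5.99, 6.19 and 6.30 in mock clones, so NCCRP1 clone 1 alone stood well apart. Its log2 difference was 0.50 ± 0.22 (SE, limma adjusted p = 0.664), with 1.11 within run 15 and 0.09 within run 14, and it was 0.24 without NCCRP1 clone 1. The overlapping read-through gene RPL17-C18orf32 had 1.40, 3.63 and 3.94 in NCCRP1 clones against 3.42, 3.80 and 3.52 in mock clones. It was low in the same library in which RPL17 was high, and because the 2 genes share exons, neither value is certain. RPS10 and RPL36A share exons with RPS10-NUDT3 and RPL36A-HNRNPH2 in the same way, and those 2 read-through genes differed by 0.04 and -0.01.

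**Figure D3:**
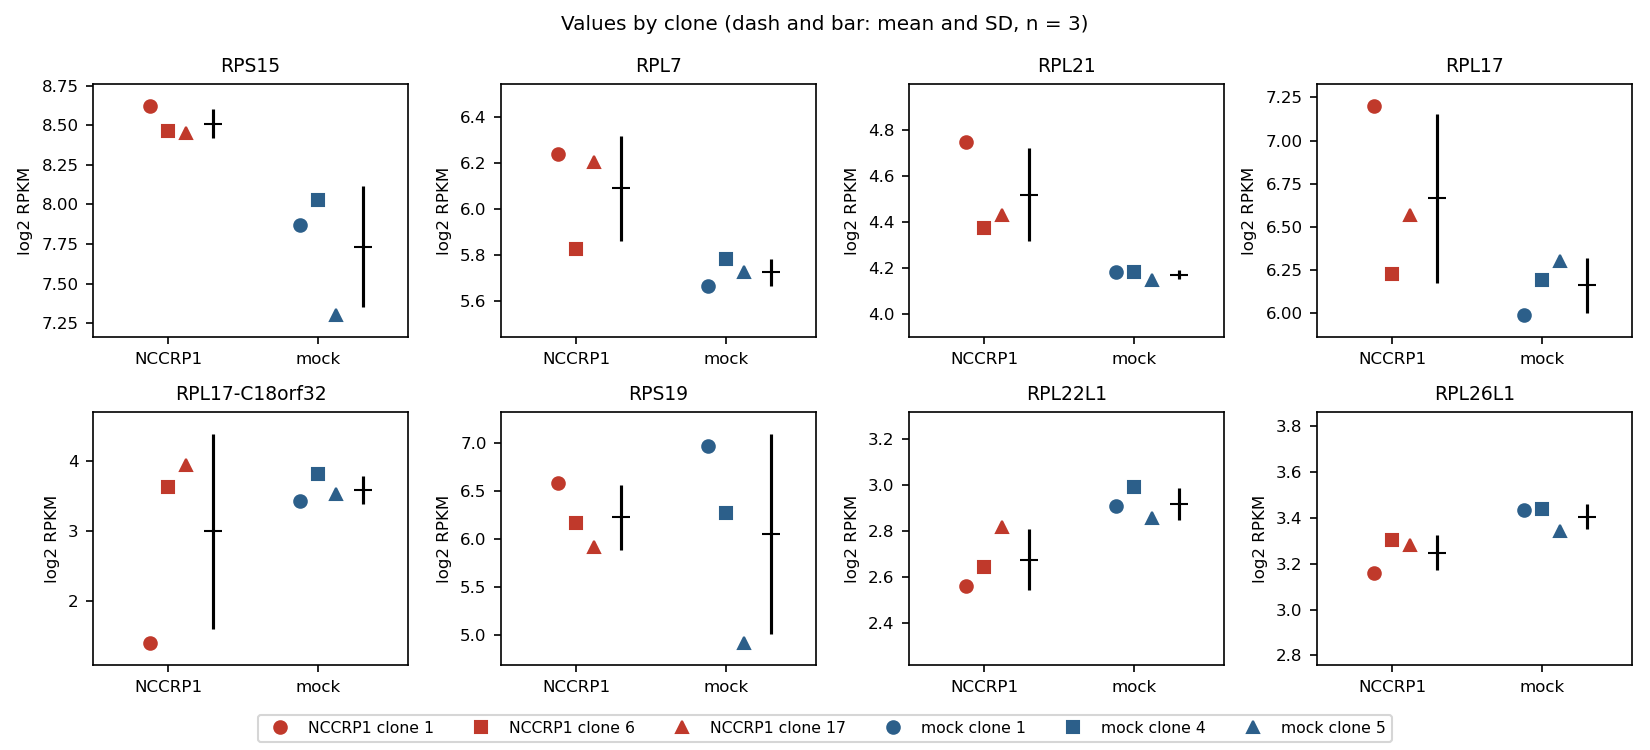
Log2 RPKM by clone of 7 ribosomal protein genes and the read-through gene RPL17-C18orf32, with NCCRP1 clones in red on the left, mock clones in blue on the right, and dashes and bars for the mean and SD (n = 3 each). RPS15, RPL7 and RPL21 separate the groups upward and RPL22L1 and RPL26L1 downward, while RPL17 is highest in NCCRP1 clone 1 and RPS19 lowest in mock clone 5.

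The lowest unadjusted p among members with a lower NCCRP1 mean belonged to RPL22L1, which can take the place of RPL22 in the ribosome. RPL22L1 had 2.56, 2.64 and 2.82 in NCCRP1 clones against 2.91, 2.99 and 2.86 in mock clones. RPL22, an RNA-binding protein, had 5.10, 5.20 and 5.06 in NCCRP1 clones against 5.31, 5.16 and 5.27 in mock clones and was the steadiest member over the 6 libraries. The differences were -0.24 ± 0.16 for RPL22L1 and -0.13 ± 0.13 for RPL22 (SE, limma adjusted p = 0.845 and 0.934), so both genes of the pair had lower means. RPL26L1 had 3.16, 3.30 and 3.28 in NCCRP1 clones against 3.43, 3.44 and 3.34 in mock clones, a difference of -0.16, whereas RPL26 had a mean higher by 0.30.

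RPS28, a small protein at the messenger RNA exit, had 3.46, 2.74 and 3.78 in NCCRP1 clones against 4.44, 3.62 and 3.36 in mock clones. Its difference of -0.49 ± 0.32 (SE, limma adjusted p = 0.850) was the largest downward one, yet NCCRP1 clone 17 lay above mock clones 4 and 5. RPL37, RPS15A and RPL36A differed by -0.14, -0.13 and -0.16, all with overlapping clones and limma adjusted p-values of 0.952 to 0.965.

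The genes whose products signal ribosome stress to MDM2 both had higher means, as did 57 of all 81 members. RPL11 had 10.07, 9.82 and 10.00 in NCCRP1 clones against 9.77, 9.83 and 9.32 in mock clones, and RPL5 had 8.17, 7.83 and 7.78 against 7.83, 7.69 and 7.68. Their differences were 0.32 ± 0.23 and 0.19 ± 0.17 (SE, limma adjusted p = 0.864 and 0.912), and in each gene 1 mock clone reached into the NCCRP1 range. RPS27L, a p53 target in human cells, had 3.04, 2.89 and 3.05 in NCCRP1 clones against 2.95, 2.39 and 3.10 in mock clones, and RPS27 had 4.34, 3.88 and 4.13 against 4.11, 3.72 and 3.92. Neither separated the groups. RPL10, among the last large-subunit proteins to join, had 5.31, 4.95 and 5.39 in NCCRP1 clones against 5.30, 5.13 and 5.36 in mock clones, a difference of -0.05.

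RPS27A is made as a fusion with ubiquitin. RPS27A had 5.58, 5.47 and 5.47 in NCCRP1 clones against 4.93, 5.08 and 5.77 in mock clones. The means differed by 0.25, and mock clone 5 was the highest of the 6 libraries. Without mock clone 5, RPS27A had the lowest limma adjusted p of any member, 0.347, and over the other settings it reached 1.00. FAU and RACK1, which also give small-subunit proteins, differed by -0.09 and -0.02.

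RPS19, a small-subunit protein mutated in Diamond-Blackfan anaemia, had 6.59, 6.17 and 5.92 in NCCRP1 clones against 6.97, 6.27 and 4.92 in mock clones, the widest range of any member at 2.04. Its difference was 0.17 with a standard error of 0.51. The median deviation of the 81 members from each gene's mean was 0.23, -0.03 and 0.00 in NCCRP1 clones 1, 6 and 17, compared with 0.14, 0.02 and -0.25 in mock clones 1, 4 and 5. Over the 11927 genes above 0 in every library the same medians lay between -0.03 and 0.02 in NCCRP1 clones and between -0.03 and 0.05 in mock clones. NCCRP1 clone 1 was the highest library for 38 of 81 members, or 46.9%, against 13.5% of all genes, and mock clone 5 was the lowest for 49, or 60.5%, against 19.8% of all genes. The member medians of run 15, from NCCRP1 clone 1 and mock clones 1 and 4, all lay above those of run 14. Clone and run cannot be told apart in these deviations.

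**Figure D4:**
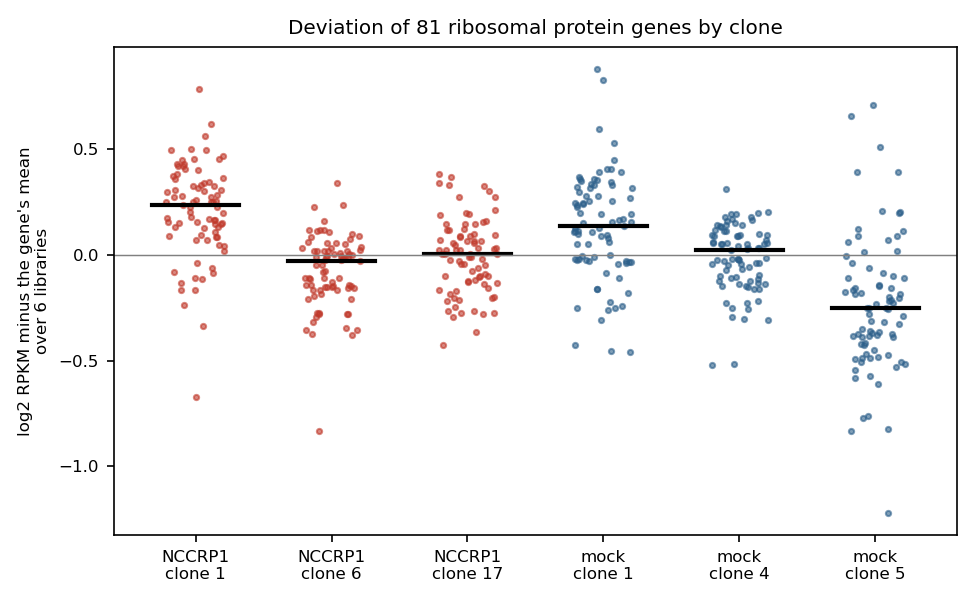
Deviation of each of 81 ribosomal protein genes from its own mean over 6 libraries (vertical axis, log2 RPKM) in each clone (horizontal axis), with NCCRP1 clones in red, mock clones in blue and a black line at the median. NCCRP1 clone 1 sits highest at 0.23 and mock clone 5 lowest at -0.25, and the other medians lie between -0.03 and 0.14.

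In NCCRP1 clone 1 the members exceeded the mean of NCCRP1 clones 6 and 17 by a median of 0.23, with 70 of 81 higher. RPLP0, RPL17 and RPSA exceeded it most, by 0.90, 0.80 and 0.79, whereas RPL9, a large-subunit protein at the base of the stalk region, was 0.95 lower there. RPL9 had 5.39, 6.28 and 6.38 in NCCRP1 clones against 5.80, 6.22 and 6.26 in mock clones. Its 30 nearest expressed neighbours on chromosome 4 were low in the same library, with a median deviation of -0.54, 0.21 and 0.14 in NCCRP1 clones 1, 6 and 17, and the part of that region in the RPL9 value was not tested. In mock clone 5 the members fell short of mock clones 1 and 4 by a median log2 of -0.38, with 64 of 81 lower, where the median of all genes was 0.05. RPS19, RPL18 and RPS9 were the lowest, at -1.70, -1.22 and -0.99. RPS29, RPS3A, RPL39 and RPS27A went the other way, at 0.95, 0.95, 0.92 and 0.77. RPS3A, a small-subunit protein, had 5.95, 5.51 and 5.89 in NCCRP1 clones against 5.59, 5.63 and 6.56 in mock clones. The neighbours of RPS3A on chromosome 4 had a median deviation of 0.63 in mock clone 5, near its own 0.71, against -0.27 and -0.21 in mock clones 1 and 4. For RPS29, RPL39 and RPS27A the neighbours' median deviation in mock clone 5 was 0.19, 0.16 and 0.18, below the genes' own 0.65, 0.51 and 0.39, and the part of the surroundings in these values was not tested.

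Base composition moved with these gaps, and so did mean level. Across the 81 genes, a library's deviation correlated with mean level at r = 0.44 in NCCRP1 clone 1 and -0.45 in mock clone 5. In NCCRP1 clones 6 and 17 r was 0.24 and -0.37, and in mock clones 1 and 4 it was 0.12 and 0.25. Over all genes above 0 in every library it was 0.21 in NCCRP1 clone 1 and -0.16 in mock clone 5. Among the 27 members of highest GC content, 52.3% to 62.1%, mock clone 5 was below mock clones 1 and 4 by a median log2 of -0.60, and among the 27 of lowest GC content, 39.3% to 46.1%, by -0.08. Across the 81 genes the correlation of the library's deviation with GC content was r = -0.48 and rho = -0.47 in mock clone 5, and 0.42 and 0.41 in mock clone 1. Over 11665 genes r was -0.54 in mock clone 5 and 0.47 in mock clone 1. In these mock clones the relation was thus not peculiar to ribosomal protein genes. Genes of 1 library are not independent of each other. In NCCRP1 clones 1, 6 and 17, r over the members was 0.28, -0.01 and -0.33. Over the 11665 genes it was 0.09, -0.18 and 0.00 in these clones, so members and all genes differed more there. With the GC trend over all genes taken out, the median deviation of the members was 0.26, -0.05 and -0.01 in NCCRP1 clones 1, 6 and 17, compared with 0.19, 0.02 and -0.31 in mock clones 1, 4 and 5. That step also removes a library's general shift. With library medians alone removed, the values were 0.28, -0.03 and -0.03 in NCCRP1 clones 1, 6 and 17. In mock clones 1, 4 and 5 they were 0.18, 0.02 and -0.31. The part of GC content in the gaps of NCCRP1 clone 1 and mock clone 5 was not tested.

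**Figure D5:**
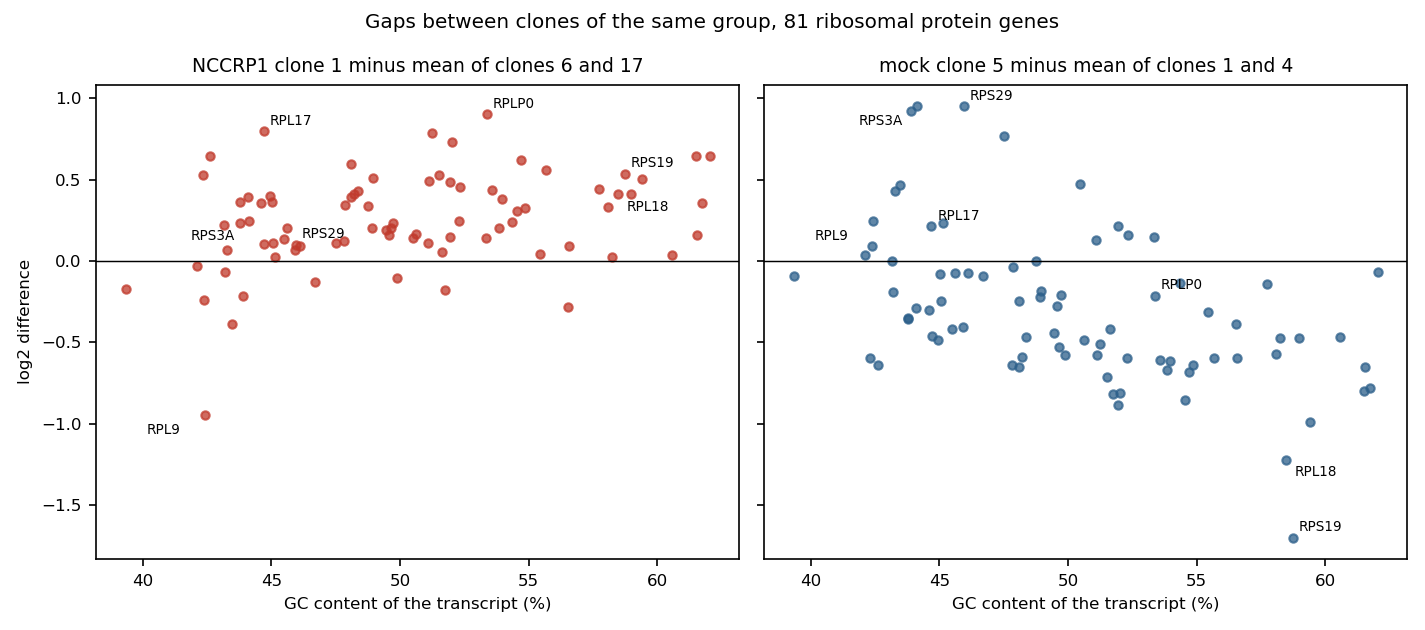
Log2 gap between clones of 1 group for 81 ribosomal protein genes (vertical axis) against the GC content of the transcript in percent (horizontal axis), with NCCRP1 clone 1 minus clones 6 and 17 on the left and mock clone 5 minus clones 1 and 4 on the right. On the left 70 of 81 genes lie above 0, and on the right the gap deepens with GC content, down to RPS19 at -1.70.

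Besides RPS15, RPL9 and RPS3A, some other members lay among genes that moved in 1 library or between the groups. The largest group, 12 genes on chromosome 19, held both RPS15 and RPS28 and had a median difference of 0.04, with 8 of 12 higher. RPS28's neighbours on that chromosome had a median difference of -0.22, with 6 of 30 higher. On chromosome 9 the neighbours of RPL35, RPL7A and RPL12 had median deviations of -0.30, -0.28 and -0.26 in NCCRP1 clone 1, where these genes' own deviations were 0.02, -0.13 and 0.15. RPS24 of chromosome 10 had 6.26, 5.74 and 6.04 in NCCRP1 clones against 6.16, 6.14 and 5.79 in mock clones. Its neighbours' median deviation in NCCRP1 clone 6 was -0.45, and its own was -0.28, while its mean differed from that of mock clones by only -0.02.

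Every one of the 76 members other than paralogs had at least 1 pseudogene listed under its symbol, from 4 to 136, the last for RPL21. Of the 1894 pseudogene entries, 1875 were listed at 0 in all 6 libraries and 15 were above 0 in all of them. The highest was RPS14P3, with 9.05, 8.91 and 8.91 in NCCRP1 clones against 8.75, 8.62 and 9.06 in mock clones, above RPS14 itself at a mean of 8.36. RPS14 and RPS14P3 are near copies, so both values are uncertain. Members with 4 to 10 pseudogenes had a median log2 level of 7.65, those with 10 to 29 of 6.92 and those with 31 to 136 of 6.40. Over the 76 genes the correlation of pseudogene number with mean level was r = -0.36 and rho = -0.33. The group differences did not follow that order, with medians of 0.09, 0.06 and 0.06, and this is a description across genes that share libraries.

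Within the spans of 29 members lie 60 small nucleolar RNA genes, which guide the modification of ribosomal RNA. Of these, 58 were listed and 50 were above 0 in every library. The mean was higher in NCCRP1 clones for 42 of the 50, against 46.7% of all tested genes. Their median log2 difference was 0.15, against -0.02 over all tested genes and 0.06 over the 29 members that hold them. Small nucleolar RNAs elsewhere were not compared, so the shift cannot be called particular to these. None of the 50 passed, the lowest limma adjusted p being 0.639.

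Other genes of the translation machinery were set beside the members. None passed among 24 tested translation genes known or proposed to carry a TOP tract, 28 initiation factors, 46 ribosome biogenesis factors, 25 RNA polymerase I and III genes, 22 regulators of TOP translation and the ribosome checkpoint, and 75 mitochondrial ribosomal proteins. Their median log2 differences were 0.00, 0.03, 0.00, -0.10, 0.00 and 0.04. The nearest to the threshold was EIF4A2, an RNA helicase of initiation, with 6.51, 6.47 and 6.57 in NCCRP1 clones against 5.94, 5.88 and 6.12 in mock clones. Elongation factor EEF2, which moves the ribosome along the message, had 10.65, 10.28 and 10.39 in NCCRP1 clones against 9.90, 9.76 and 9.46 in mock clones. Neither gene's groups overlapped, and the differences were 0.54 ± 0.14 and 0.73 ± 0.23 (SE, limma adjusted p = 0.278 and 0.415). Genes of these lists were singled out by their low unadjusted p. Among the 24 translation genes with a known or proposed TOP tract, all NCCRP1 clones lay above all mock clones for 3, against 5.71% of all tested genes. All lay below for 1, against 7.05%. The median deviations of the mitochondrial ribosomal proteins were 0.17, 0.05 and -0.10 in NCCRP1 clones 1, 6 and 17, compared with 0.07, -0.03 and -0.13 in mock clones 1, 4 and 5. NCCRP1 clone 1 was highest and mock clone 5 lowest in that list, as among the cytosolic members. In the other 5 lists mock clone 5 was not the lowest library, with medians of -0.01 to 0.09, and NCCRP1 clone 1 was the highest in 4, at 0.10 to 0.16, but not among the regulators, at -0.01.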

How the data were processed

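Total RNA of 6 KYSE150 clones was depleted of ribosomal RNA, per the labels' protocols. The authors deposited 1 file a library whose header names RPKM, but the values are log2 RPKM: raised as powers of 2, multiplied by transcript length in kilobases and summed, they came to 860018 to 865355 in each library. The submitters' processing notes name hg19 and bedtools 2.25.0, and the counting rule and strand setting are not given in the sources used here. RefSeq paired 37997 of 40448 identifiers with symbols. All genes above 0 in at least 3 libraries, 12737, were fitted on the deposited log2 values with limma 3.58.1 in R 4.3.3 (trended, robust, group only), two-sided, with Benjamini-Hochberg adjustment over all of them and a threshold of 0.05. A gene's exact permutation p cannot go below 0.1 with 3 against 3 clones. The fit was tested on simulated data. Members and lists were chosen with earlier results of these data known. Members described singly were the 6 highest, the 4 lowest, up to 8 a direction by unadjusted p, those at 0 in some or all libraries, and those with a set role. Members outside these groups, including those picked for the gap of 1 library (RPL9, RPL18, RPS9, RPS29, RPS3A) or for a neighbouring or overlapping gene (RPS10, RPS24, RPL26), were named after their values were seen. GC content and length came from GENCODE transcripts of GRCh38, and TOP tracts and sequences from RefSeq of GRCh38.p14; pseudogenes were matched by symbol. Alternatives left out each clone, added run, changed filter, pseudocount and empirical Bayes settings, or removed library median, GC or length trends. A few genes are counted in the totals but not reported singly here or drawn by name.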

Additional observations from a re-analysis of the deposited data

How the results depend on the processing

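No member passed under any of the 15 other settings, at 1 to 28 called genes over all genes against 13 as reported. When each clone was left out in turn, the median log2 difference of the members ranged from -0.02 to 0.19 and the number with a higher NCCRP1 mean from 35, without mock clone 5, and 38, without NCCRP1 clone 1, to 69. With run as a term the median was 0.16. Other filters, pseudocounts, trend removals and centring gave medians of 0.07 to 0.08. The 35 members described singly gave 525 values over the settings, none of which passed, and 500 kept their sign. Leaving out a clone also leaves 2 samples in 1 group, and the cause of these shifts was not tested. Without NCCRP1 clone 1 or mock clone 5, the group left with 2 samples also lies wholly in 1 run. The setting with no filter required a value above 0 in 1 library, because genes at 0 throughout have no spread. No paired analysis was possible, because the labels give no pairing between NCCRP1 and mock clones. With GENCODE transcript lengths, RPS26 had the fewest estimated reads, at 32 to 63.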
